A study of Mus musculus with 8 samples.

Results

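The genes described here are 35 protein-coding imprinted genes of the mouse, read from a table of gene-level RNA-seq counts in oocytes. They were taken by name from a list, and Ensembl identifiers were matched to gene symbols. All 35 were found among the 54838 gene entries. By the allele usually expressed in embryo, placenta or brain, 15 are maternally expressed and 20 paternally expressed. They lie in 15 imprinted domains.

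The oocytes came from C57BL/6 mice in which BAF250a was removed with Gdf9-cre. The Gdf9 promoter drives this recombinase in oocytes from early in their growth, so the gene is lost in the germ cell and not in the surrounding follicle. BAF250a is the product of Arid1a and helps a SWI/SNF-type remodeller, which repositions nucleosomes, to bind DNA. The 4 groups were BAF250aGKO oocytes in metaphase of the second meiotic division (knockout MII), wildtype MII oocytes (control MII), BAF250aGKO oocytes at the germinal vesicle stage (knockout GV) and wildtype GV oocytes (control GV). Each group had 2 libraries, and each library pooled 5 to 10 oocytes. The labels do not say that libraries came from separate animals, so p-values measure the spread between libraries, which may be technical.

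Imprinted genes are expressed mainly or only from the copy inherited from 1 parent. The choice is set by DNA methylation laid down at control regions in the growing oocyte or in the male germ line, and many of these regions are CG-rich promoters. The oocyte first loses the imprints it inherited and then sets the maternal pattern on both of its copies, so that transcripts in an oocyte do not come from a paternally marked chromosome. Counts from an inbred strain do not separate parental alleles, and "maternally expressed" and "paternally expressed" below name the allele known from other tissues. Of the 15 domains, 13 with 31 members carry a control region methylated in the egg and 2 with 4 members carry one methylated in sperm.

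Most of the sequences below show an arrangement in which a paternally expressed gene starts inside a maternally expressed one. No expression result was tested against these sequences. They are the RefSeq bases of GRCm38.p6 directly before the first annotated exon of H13 (chr2:152669211-152669460, plus strand), of Mcts2 inside H13 (chr2:152686898-152687034, plus strand), of Commd1 (chr11:22982383-22982534, minus strand) and of Zrsr1 inside Commd1 (chr11:22971755-22972004, plus strand). The fifth stretch lies between the facing first exons of Peg3 and Usp29 (chr7:6730432-6730577, plus strand), both paternally expressed. Capitals mark CG dinucleotides, the sites at which mammalian DNA is methylated; methylation itself was not measured here.

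H13: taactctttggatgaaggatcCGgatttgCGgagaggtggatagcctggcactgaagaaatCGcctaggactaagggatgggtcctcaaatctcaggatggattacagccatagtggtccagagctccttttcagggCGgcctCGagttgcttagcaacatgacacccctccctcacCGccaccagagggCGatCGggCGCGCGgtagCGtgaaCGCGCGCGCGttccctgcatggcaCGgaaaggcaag

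Mcts2: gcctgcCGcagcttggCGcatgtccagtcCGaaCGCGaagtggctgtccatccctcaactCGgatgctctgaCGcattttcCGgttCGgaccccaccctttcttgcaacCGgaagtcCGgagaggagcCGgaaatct

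Commd1: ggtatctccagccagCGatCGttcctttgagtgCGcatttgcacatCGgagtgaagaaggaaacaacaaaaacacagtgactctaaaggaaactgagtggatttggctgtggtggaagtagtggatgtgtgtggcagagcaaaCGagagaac

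Zrsr1: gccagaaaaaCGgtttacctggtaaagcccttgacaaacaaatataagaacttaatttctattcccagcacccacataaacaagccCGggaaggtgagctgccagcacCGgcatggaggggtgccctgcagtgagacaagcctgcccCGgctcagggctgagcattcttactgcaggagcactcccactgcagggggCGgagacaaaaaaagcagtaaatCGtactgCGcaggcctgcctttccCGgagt

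Peg3-Usp29: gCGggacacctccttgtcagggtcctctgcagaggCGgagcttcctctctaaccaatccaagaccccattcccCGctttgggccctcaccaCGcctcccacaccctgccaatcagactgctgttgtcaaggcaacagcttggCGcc

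The stretch before H13 held 18 CG in 250 bases, that before Mcts2 held 12 in 137, that before Commd1 held 5 in 152, that before Zrsr1 held 8 in 250 and the one between Peg3 and Usp29 held 5 in 146. RefSeq promoter windows of 300 bases (250 before to 50 after a start) were found for 28 members. A window with at least 10 CG (the letters CG, which read the same on both strands) was held by 24 of these 28, against 45.8% of the 27025 genes in the table. The share was 11 of 12 for maternally expressed and 13 of 16 for paternally expressed members.

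Read counts were scaled to CPM, a read count scaled to the depth of its library, with TMM factors, and 20 members reached a group mean of 1 CPM in at least 1 group, 11 of them maternally and 9 paternally expressed. Between 22 and 28 of the 35 had at least 1 read in a library. Per kilobase of exon, the 5 members with the highest mean level over the 8 libraries were all maternally expressed. H13, which encodes signal peptide peptidase, a protease of the endoplasmic reticulum membrane, had 29.5 CPM per kilobase. Kcnq1, the pore-forming subunit of a voltage-gated potassium channel, had 19.3 and Phlda2, a pleckstrin-homology protein that restrains placental growth, had 12.4. Cdkn1c, an inhibitor of cyclin-dependent kinases, had 4.62 and Commd1, a regulator of copper handling, had 4.30. The highest paternally expressed member was the splicing protein gene Snrpn with 4.22, close to Commd1. Levels were divided by all exon bases of a gene, including those shared with other gene entries. The shared part is 34.1% in Snrpn, 11.9% in Commd1 and 30.7% in Cdkn1c. How reads in shared bases were counted is not given. The order of Snrpn, Commd1 and Cdkn1c, and so whether the first 5 are all maternally expressed, is therefore not settled.

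**Figure D1:**
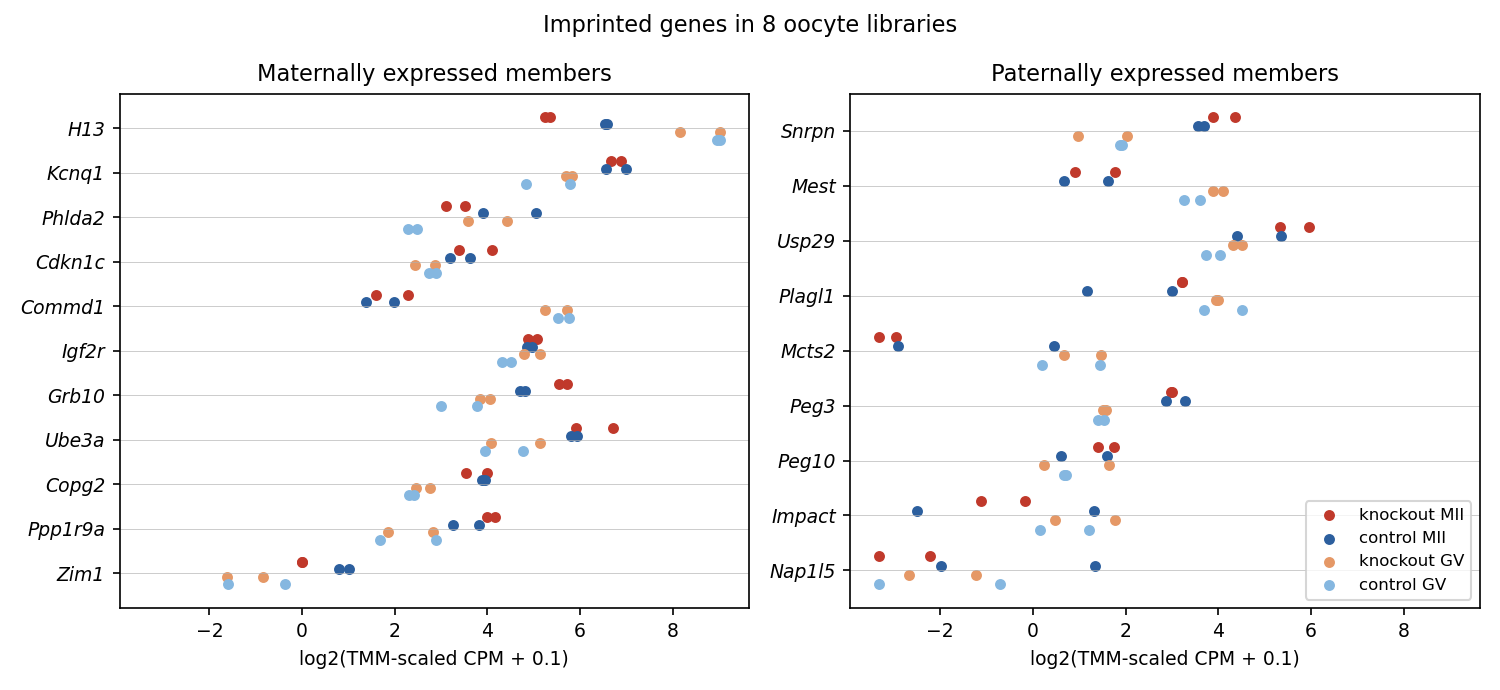
TMM-scaled CPM of the 20 members that reached a group mean of 1 CPM, on a log2 scale after adding 0.1, for maternally expressed (left) and paternally expressed (right) members. Each point is 1 of the 8 libraries and colours give the 4 groups; H13 and Commd1 lie far lower in the MII libraries, while Kcnq1, Grb10, Ube3a and Snrpn lie higher there.

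The libraries held between 19587421 and 33289150 reads in genes. Arid1a was at 33.0 and 21.7 CPM in knockout MII, 1620 and 1290 CPM in control MII, 4.87 and 12.9 CPM in knockout GV, and 380 and 458 CPM in control GV, which matched the labels. All 10 oocyte markers examined had reads in every library. Markers of granulosa and cumulus cells, the somatic cells around the oocyte, summed (CPM without TMM factors, as for the other marker sums) to 145 and 122 CPM in knockout MII, 182 and 152 in control MII, 65.6 and 89.6 in knockout GV, and 162 and 132 in control GV. In MII libraries most of this came from Cyp19a1, Nr5a2 and Greb1. These were at 62.9, 39.3 and 28.1 CPM (with TMM factors) in the first knockout MII library, where Fshr, Foxl2, Amhr2 and Inhba had no reads. Of the 14 markers, 5 and 8 had no reads in knockout MII and 4 and 2 in control MII. At GV these numbers were 4 and 3 in knockout and 3 and 3 in control oocytes. Blood and immune markers summed to 0.391 and 0.243 CPM in knockout MII against 4.92 and 51.9 CPM in control MII, where library b alone had 36.2 CPM of Cd74. At GV they summed to 36.1 and 51.1 CPM in knockout and 72.3 and 62.3 CPM in control oocytes, most of it from C1qb. C1qa, of the same list, was at most 0.418 CPM in a GV library. Mitochondrially encoded genes took 3.03% to 6.93% of the reads in MII libraries and 0.105% to 0.446% in GV libraries.

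At MII, 1 of the 24 members that could be tested differed between knockout and control: H13 fell. Over all 15572 genes tested, 5.14% passed, 1.7% higher and 3.44% lower. H13 was at 37.5 and 40.8 CPM in knockout MII, against 96.1 and 92.2 CPM in control MII. The 2 groups did not overlap, and the knockout level was 0.416 times the control level (log2 fold change -1.27 ± 0.31 SE, adjusted p = 0.0435). Without overlap, 21.7% of all genes tested lay higher and 24.7% lower in knockout MII. In pools of oocytes, fewer cells of a type and less RNA per cell cannot be told apart. The direction was the same in all 15 alternative fits, but the call held in 8 of them, with adjusted p between 0.00357 and 0.143. It was lost without either control GV library (0.0761 and 0.0773), either control MII library (0.139 and 0.127) or either knockout MII library (0.13 and 0.143), and with relative log expression factors (0.0597). Of the 14 granulosa and cumulus markers, 12 were tested and 1, Hsd17b1, passed, at 0.0596 and 0 CPM in knockout MII against 3.04 and 2.35 CPM in control MII. Of the 12 blood and immune markers, 4 were tested and 1, Cd52, passed, with no reads in knockout MII and 4.15 and 10.0 CPM in control MII, while Ptprc and Lyz2 were at 0 in all 8 libraries. Of the 10 oocyte markers, 1, Figla, passed, at 0.0894 and 0.0377 CPM in knockout MII against 1 and 0.264 CPM in control MII. The mitochondrial share was 3.03% and 4.41% in knockout MII against 6.03% and 6.93% in control MII. Their part in the level of H13 was not tested.

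Another 3 members had an unadjusted p below 0.05 at MII and did not pass after adjustment. With H13 these were 4 of 24, beside 22.2% of all genes tested. Phlda2 was at 8.49 and 11.3 CPM in knockout MII against 33.2 and 14.9 CPM in control MII, without overlap (-1.28 ± 0.50, adjusted p = 0.168). Without control MII library a the difference was -0.565. Grb10, an adaptor that restrains insulin and growth factor receptor signalling, was at 46.5 and 52.2 CPM in knockout MII against 26.1 and 27.9 CPM in control MII, again without overlap. Mcts2, a retrotransposed copy of Mcts1 that sits in an intron of H13, was at 0.0298 and 0 CPM in knockout MII against 1.27 and 0.033 CPM in control MII, so that its control level rested on library a. The other high-level maternally expressed members lay close to the control level at MII. Kcnq1 was at 118 and 102 CPM in knockout MII against 127 and 93.6 CPM in control MII (0.00 ± 0.34, adjusted p = 1). Commd1 was at 4.77 and 2.94 CPM against 3.85 and 2.51 CPM in control MII (0.28 ± 0.39, adjusted p = 0.743), and Cdkn1c at 10.4 and 17.1 CPM against 9.08 and 12.3 CPM in control MII (0.36 ± 0.48, adjusted p = 0.724). In each of these the groups overlapped.

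Nap1l5, a retrogene of the nucleosome assembly protein family inside Herc3, had 0 and 0.113 CPM in knockout MII and 0.154 and 2.44 CPM in control MII. Impact, a regulator of translation, had 0.357 and 0.793 CPM in knockout MII and 0.0769 and 2.38 CPM in control MII. Zrsr1, a retrogene of a splicing factor family inside Commd1, had 0.0298 and 0 CPM in knockout MII and 0 and 0.925 CPM in control MII. The high value of each was that of control MII library b, the MII library with 51.9 CPM of blood and immune markers. Ndn also was higher there, at 0 CPM in library a and 1.49 CPM in b. Other members were higher in library a than in b, among them Mcts2 (1.27 and 0.033 CPM), Calcr (1.08 and 0 CPM) and Plagl1 (7.96 and 2.15 CPM). The part of blood and immune cells in these values was not tested.

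At GV, no member passed between knockout and control (edgeR; 0.989% of all genes tested passed, 0.597% higher and 0.392% lower). DESeq2 also called 0 members, with 526 of 15572 genes called. In edgeR 1 member, Phlda2, had an unadjusted p below 0.05, beside 10.8% of all genes tested. Phlda2 was at 21.2 and 11.9 CPM in knockout GV against 4.78 and 5.49 CPM in control GV (1.69 ± 0.51, adjusted p = 0.206), without overlap. Phlda2 passed when only the 2 GV groups were fitted (edgeR, adjusted p = 0.017), a fit in which 770 of 15527 genes passed. Without overlap, 22.6% of all genes tested lay higher and 23.8% lower in knockout GV. H13 was at 522 and 287 CPM in knockout GV against 500 and 520 CPM in control GV (-0.33 ± 0.30, adjusted p = 0.842), and the lower knockout library stood apart. Kcnq1 was at 51.9 and 56.5 CPM in knockout GV against 55.2 and 28.2 CPM in control GV (0.38 ± 0.34, adjusted p = 0.84). Commd1 was at 52.9 and 37.6 CPM against 54.0 and 45.8 CPM in control GV (-0.14 ± 0.38, adjusted p = 0.987), and Cdkn1c at 5.32 and 7.19 CPM against 6.59 and 7.37 CPM in control GV (-0.16 ± 0.48, adjusted p = 0.987). The groups overlapped in H13, Kcnq1, Commd1 and Cdkn1c.

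**Figure D2:**
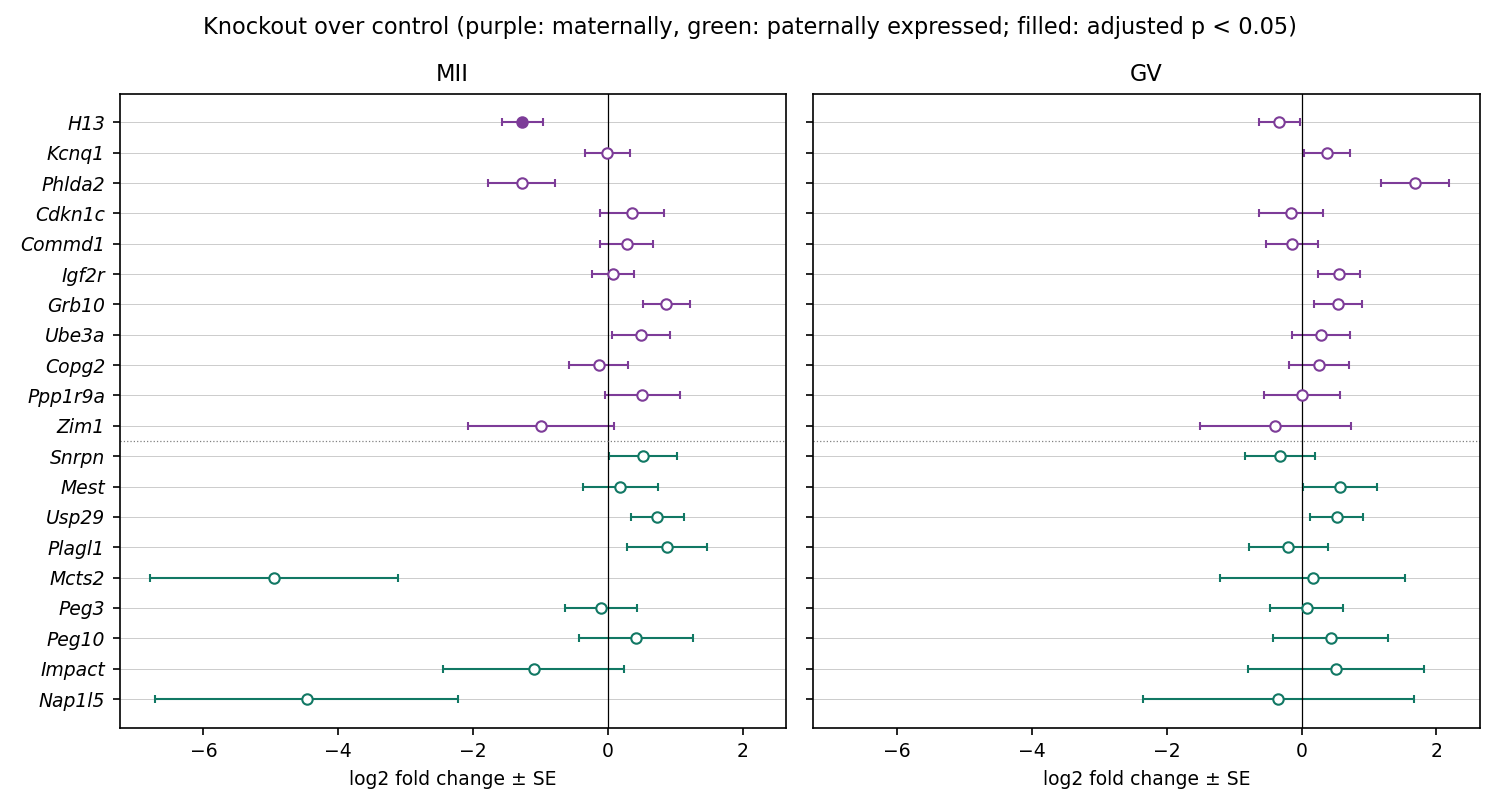
Log2 fold change of knockout over control with its SE at MII (left) and GV (right) for the 20 members that reached 1 CPM in a group; purple marks maternally and green paternally expressed members, and filled points passed an adjusted p of 0.05. Only H13 at MII (-1.27) is filled, and Phlda2 lies on opposite sides of 0 at the 2 stages (-1.28 at MII and 1.69 at GV).

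Phlda2 was the member whose knockout effect differed most between the stages relative to its error. The difference of its knockout effect, MII minus GV, was -2.96 ± 0.71 (edgeR, adjusted p = 0.163), and no member passed this test. Across all genes tested, 0.0835% passed, 0.00642% higher and 0.0771% lower. At an unadjusted p below 0.05 there were 3 of 24 members, Phlda2, Zrsr1 and Mcts2, beside 11.5% of all genes tested. DESeq2 called 1 member, Phlda2 (adjusted p = 0.0113), as did edgeR without a filter on low counts (adjusted p = 0.00898). Over all genes, DESeq2 called 355 of 15572 and edgeR without the filter 498 of 25203. The difference for H13 was -0.93 ± 0.43 (adjusted p = 0.449), so the fall at MII was not shown to differ from the effect at GV. For Kcnq1, Cdkn1c and Commd1 it was -0.38 ± 0.48, 0.52 ± 0.68 and 0.43 ± 0.55 (adjusted p = 0.837, 0.845 and 0.842).

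Between GV and MII, 13 of the 24 members tested passed in each genotype, a share near that of all genes. In knockout oocytes 8 members were higher and 5 lower at MII than at GV, with 19.9% of all genes tested higher and 29.1% lower (49% in all). In control oocytes 8 were higher and 5 lower, with 21.2% of all genes higher and 27.9% lower (49.1% in all). Both comparisons are MII against GV within a genotype. CPM is a share of the reads of a library, so a rise or fall between stages is one of that share. RNA per oocyte was not measured. MII libraries had reads in 15026 to 16400 genes and GV libraries in 18467 to 19249. Without overlap of the 2 stages, 33.3% of all genes tested lay higher and 43.6% lower at MII in knockout oocytes. In control oocytes these shares were 34.8% and 43.1%. Of the 24 members, 10 lay higher and 10 lower without overlap in knockout oocytes, and 13 and 5 in control oocytes. Maternally expressed members made up 5 of the higher and 2 of the lower calls in each genotype. With library totals as the only scaling, the control calls of Grb10, Ube3a, Copg2, Peg3 and Usp29 were lost. The knockout calls of Peg3, Copg2 and Ppp1r9a were lost too. All of these were rises, and no call of a fall was lost in that way. Markers of other cells also differed between the stages. Of the 12 granulosa and cumulus markers tested, 2 were higher and 3 lower at MII in knockout oocytes, and 3 were higher and 2 lower in control oocytes. C1qb, a complement gene of macrophages, fell in both genotypes, to 0.387 and 0 CPM in knockout MII against 46.3 and 46.8 CPM in knockout GV, and to 0.308 and 2.18 CPM in control MII against 69.3 and 50.7 CPM in control GV. Cd52 rose in control oocytes (4.15 and 10.0 CPM in MII, no reads in GV). Of the other blood and immune markers at GV, C1qa was at 0 and 0 CPM in knockout and 0.418 and 0.21 CPM in control oocytes. Cd74 was at 0 and 0 CPM in knockout GV and 0.511 and 0 CPM in control GV. Tyrobp, Ptprc and Lyz2 had no reads in any GV library. Whether such cells were present, and their part in the changes below, was not tested.

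Among maternally expressed members, H13 and Commd1 fell. H13 stood at 37.5 and 40.8 CPM in knockout MII against 522 and 287 CPM in knockout GV, and at 96.1 and 92.2 CPM in control MII against 500 and 520 CPM in control GV. The log2 fold change was -3.37 ± 0.33 in knockout oocytes (adjusted p = 0.000035) and -2.44 ± 0.32 in control oocytes (adjusted p = 0.000197). Commd1 stood at 4.77 and 2.94 CPM in knockout MII against 52.9 and 37.6 CPM in knockout GV, and at 3.85 and 2.51 CPM in control MII against 54.0 and 45.8 CPM in control GV. This was a change of -3.55 ± 0.42 in knockout oocytes (adjusted p = 0.000105) and -3.97 ± 0.43 in control oocytes (adjusted p = 0.000072). MII libraries lay below every GV library for both genes, and both calls held in all 15 alternative fits of each genotype.

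Among paternally expressed members, Mest and Nnat fell in both genotypes. Mest, which encodes a protein of the alpha/beta hydrolase fold, was at 1.79 and 3.32 CPM in knockout MII against 14.8 and 17.0 CPM in knockout GV (-2.64 ± 0.58, adjusted p = 0.0039). It was at 1.5 and 2.97 CPM in control MII against 12 and 9.43 CPM in control GV (-2.26 ± 0.58, adjusted p = 0.0087), a call lost without the first control GV library (0.0552). Nnat, a small membrane proteolipid gene inside Blcap, had no reads in any MII library, 0.340 and 0.372 CPM in knockout GV, and 0.464 and 1.01 CPM in control GV. Against a floor of 3 counts per library it was at least 3.51-fold lower in knockout MII than in knockout GV (adjusted p = 0.0361) and at least 6.85-fold lower in control MII than in control GV (adjusted p = 0.0222). The call of Nnat held in 5 of 14 alternative fits in knockout oocytes and in 10 of 14 in control oocytes. It was lost in each genotype without any 1 library of that genotype, and in knockout oocytes also without either control GV library, with adjusted p of up to 0.0958 in knockout and 0.0897 in control oocytes. Its host gene Blcap had 455 and 482 CPM in knockout MII, 509 and 480 in control MII, 402 and 214 in knockout GV, and 222 and 300 in control GV.

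Mcts2 and Plagl1 passed in 1 genotype each. Mcts2 fell in knockout oocytes, at 0.0298 and 0 CPM in knockout MII against 2.66 and 1.49 CPM in knockout GV (-6.62 ± 1.90, adjusted p = 0.0155). The call was lost without the first knockout GV library (0.061) or the second knockout MII library (0.0664). In control oocytes Mcts2 was at 1.27 and 0.033 CPM in MII against 2.65 and 1.05 CPM in GV, and the groups overlapped (-1.5 ± 1.41, adjusted p = 0.4). Without control MII library a Mcts2 passed in control oocytes too (-5.65, adjusted p = 0.0311). Plagl1, a zinc-finger transcription factor, fell in control oocytes, at 7.96 and 2.15 CPM in MII against 22.8 and 12.9 CPM in GV (-1.82 ± 0.60, adjusted p = 0.0294). That call was lost without the first control GV library, control MII library b or the second knockout GV library, with adjusted p of up to 0.187. In knockout oocytes Plagl1 was at 9.26 and 9.25 CPM in MII against 15.3 and 15.8 CPM in GV (-0.75 ± 0.59, adjusted p = 0.309). Neither gene passed the test of the difference between genotypes (adjusted p = 0.427 for Mcts2 and 0.685 for Plagl1).

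**Figure D3:**
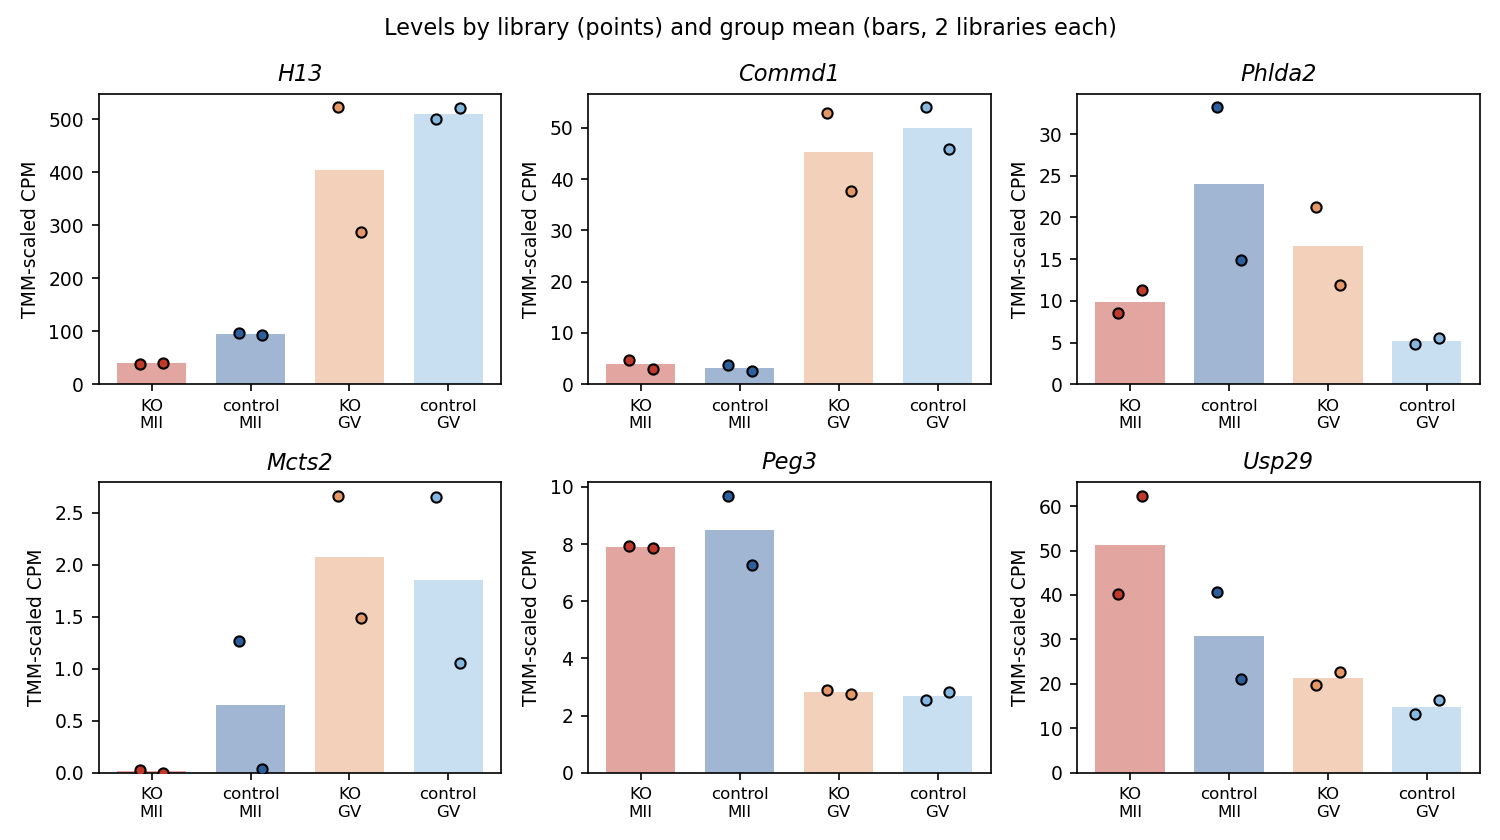
TMM-scaled CPM of 6 members in knockout MII, control MII, knockout GV and control GV; points are libraries and bars are means of 2 libraries, on a linear axis that starts at 0. H13, Commd1 and Mcts2 stand higher in the GV groups, Peg3 and Usp29 stand higher in the MII groups, and Phlda2 is highest in control MII and knockout GV.

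Phlda2 rose in control oocytes, at 33.2 and 14.9 CPM in control MII against 4.78 and 5.49 CPM in control GV (2.22 ± 0.52, adjusted p = 0.00534), a call kept in all 15 alternative fits. In knockout oocytes it was at 8.49 and 11.3 CPM in MII against 21.2 and 11.9 CPM in GV (-0.74 ± 0.50, adjusted p = 0.237). The MII libraries were thus above the GV libraries in control oocytes and below them in knockout oocytes. Many genes separate in this way, with 43.6% of all genes tested lower without overlap in knockout oocytes. The knockout change did not pass, and neither did the difference of the knockout effect (edgeR, adjusted p = 0.163).

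Of the other maternally expressed members, Kcnq1, Grb10, Ube3a and Copg2 rose in both genotypes. Kcnq1 was at 118 and 102 CPM in knockout MII against 51.9 and 56.5 CPM in knockout GV (1.02 ± 0.34, adjusted p = 0.0314), and at 127 and 93.6 CPM in control MII against 55.2 and 28.2 CPM in control GV (1.40 ± 0.35, adjusted p = 0.00749). The knockout call was lost without any 1 of the 4 knockout libraries (adjusted p of up to 0.141) and the control call without control MII library a (0.0612). Grb10 was at 46.5 and 52.2 CPM in knockout MII against 14.3 and 16.6 CPM in knockout GV (1.67 ± 0.36, adjusted p = 0.00341), a call kept in all 15 alternative fits. In control oocytes it was at 26.1 and 27.9 CPM in MII against 7.89 and 13.5 CPM in GV (1.34 ± 0.36, adjusted p = 0.011), which was lost without the first control GV library (0.0824 at most). In neither gene did the stages overlap within a genotype.

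Ube3a, a ubiquitin ligase, was at 104 and 59.9 CPM in knockout MII against 16.7 and 35.2 CPM in knockout GV (1.66 ± 0.44, adjusted p = 0.0108), and at 61.0 and 55.8 CPM in control MII against 15.3 and 27.2 CPM in control GV (1.46 ± 0.44, adjusted p = 0.0199). Its call was lost without the first knockout GV or first knockout MII library in knockout oocytes (adjusted p of up to 0.0897). In control oocytes it was lost without the first control GV library or either control MII library (up to 0.139). Copg2, a subunit of the vesicle coat, was at 11.6 and 15.8 CPM in knockout MII against 5.38 and 6.69 CPM in knockout GV (1.18 ± 0.44, adjusted p = 0.0478), and at 14.7 and 15.3 CPM in control MII against 5.24 and 4.86 CPM in control GV (1.57 ± 0.45, adjusted p = 0.0151). The knockout call of Copg2 held in 6 of 15 alternative fits and was lost without either GV library of either genotype or the second knockout MII library (up to 0.207), and the control call was lost without either control GV library (up to 0.0798). Ppp1r9a, the actin-binding protein neurabin, rose in knockout oocytes, at 17.9 and 15.8 CPM in MII against 3.51 and 6.94 CPM in GV (1.68 ± 0.57, adjusted p = 0.0326), a call lost without the first knockout GV library or either knockout MII library (up to 0.198). It was at 9.42 and 14.1 CPM in control MII against 3.11 and 7.29 CPM in control GV (1.18 ± 0.57, adjusted p = 0.107), and the difference between genotypes did not pass (adjusted p = 0.89).

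Of the paternally expressed members, Snrpn, Peg3 and Usp29 rose in both genotypes. Snrpn was at 20.5 and 14.7 CPM in knockout MII against 3.96 and 1.86 CPM in knockout GV (2.60 ± 0.54, adjusted p = 0.00269), a call kept in all 15 alternative fits. In control oocytes it was at 11.8 and 12.8 CPM in MII against 3.67 and 3.56 CPM in GV (1.76 ± 0.52, adjusted p = 0.0178), which was lost without either control GV library or control MII library b (up to 0.0882). The Snrpn values rest on an annotation in which 34.1% of its exon bases are shared with other gene entries.

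Peg3, a zinc-finger protein gene, and Usp29, a ubiquitin-specific protease gene, read away from each other from the stretch printed above. Peg3 was at 7.95 and 7.85 CPM in knockout MII against 2.89 and 2.77 CPM in knockout GV (1.48 ± 0.55, adjusted p = 0.0454), and at 9.69 and 7.27 CPM in control MII against 2.55 and 2.81 CPM in control GV (1.66 ± 0.55, adjusted p = 0.0296). Usp29 was at 40.3 and 62.3 CPM in knockout MII against 19.8 and 22.7 CPM in knockout GV (1.27 ± 0.40, adjusted p = 0.0224), and at 40.7 and 21 CPM in control MII against 13.3 and 16.3 CPM in control GV (1.06 ± 0.40, adjusted p = 0.0465). All MII libraries lay above all GV libraries of the same genotype for both genes. Peg3 kept its call in 5 of 15 alternative fits in knockout oocytes and 9 of 15 in control oocytes, and Usp29 in 12 and 3 of 15. In knockout oocytes Peg3 was lost without any 1 of the 6 libraries other than the control MII libraries (up to 0.168) and Usp29 without either knockout GV library or the second knockout MII library (up to 0.117). In control oocytes both were lost without either control GV library, control MII library a or the first knockout GV library, and Usp29 also without the second knockout GV library (up to 0.136 for Peg3 and 0.373 for Usp29).

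**Figure D4:**
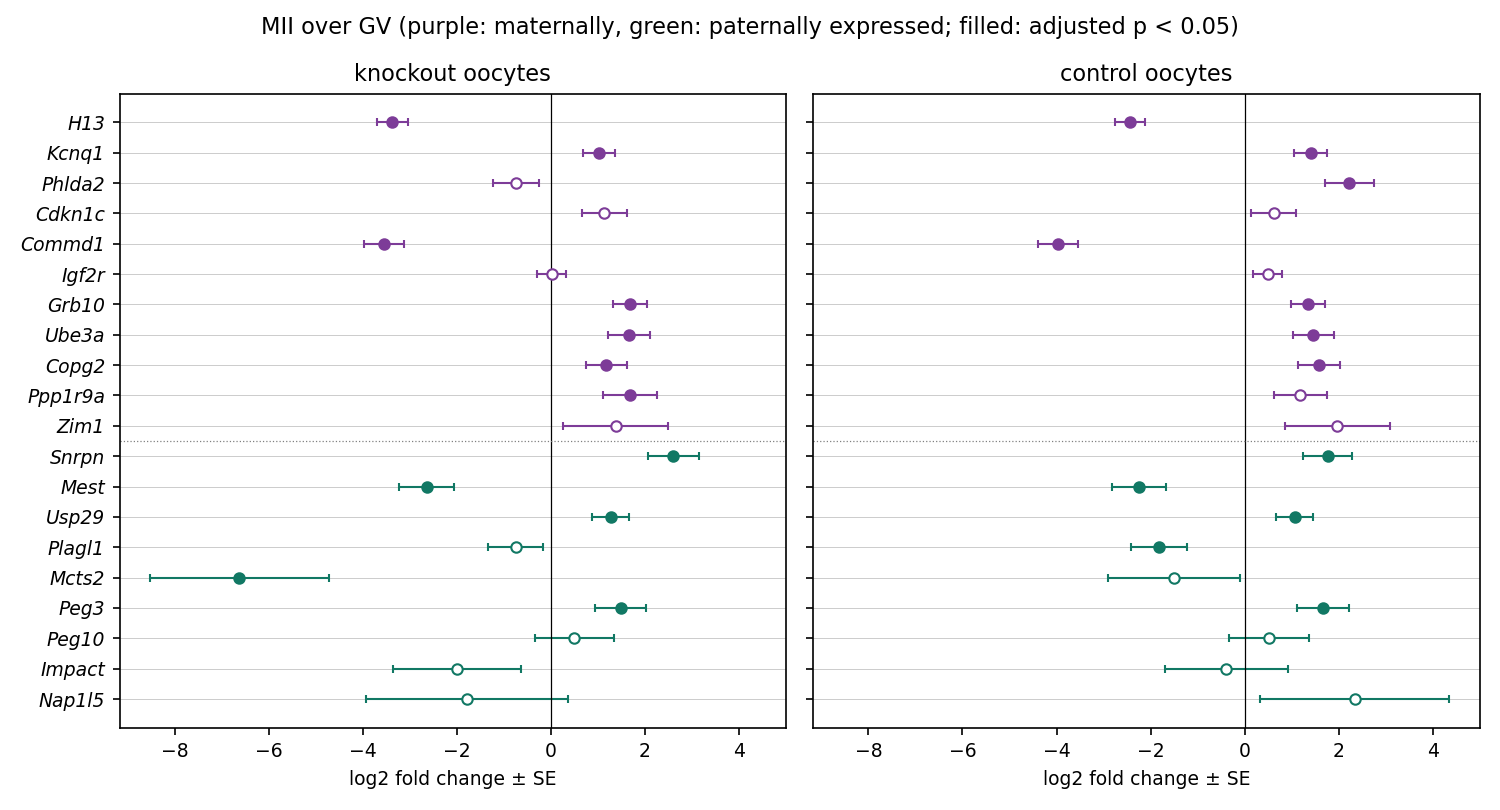
Log2 fold change of MII over GV with its SE in knockout (left) and control (right) oocytes for the 20 members that reached 1 CPM in a group; purple marks maternally and green paternally expressed members, and filled points passed an adjusted p of 0.05. H13, Commd1 and Mest lie left of 0 and Kcnq1, Grb10, Ube3a, Copg2, Snrpn, Usp29 and Peg3 right of it in both genotypes, while Phlda2 lies at -0.74 in knockout and 2.22 in control oocytes.

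The remaining members above 1 CPM did not pass in any comparison of all 8 libraries. With 1 library left out, Impact passed as lower at MII in control oocytes without control MII library b (-4.37, adjusted p = 0.0465, against -0.40 with it). Cdkn1c passed as higher at MII in knockout oocytes without the first knockout MII library (1.41, adjusted p = 0.0464). Igf2r, the receptor that clears the Igf2 growth factor, was at 29.4 and 33.6 CPM in knockout MII, 28.8 and 30.9 in control MII, 27.5 and 34.9 in knockout GV, and 19.9 and 22.8 in control GV. With all libraries the MII minus GV difference of Cdkn1c was 1.13 ± 0.48 in knockout oocytes (adjusted p = 0.075) and 0.62 ± 0.48 in control oocytes (adjusted p = 0.309). Zim1, a zinc-finger gene beside Peg3, was at 0.894 and 0.906 CPM in knockout MII, 1.92 and 1.65 in control MII, 0.227 and 0.454 in knockout GV, and 0.232 and 0.670 in control GV. Its MII libraries lay above its GV libraries in both genotypes. Peg10, a retrotransposon-derived gene needed in the placenta, was at 2.56 and 3.25 CPM in knockout MII, 1.42 and 2.91 in control MII, 1.08 and 3.02 in knockout GV, and 1.49 and 1.55 in control GV. Impact was at 1.30 and 3.30 CPM in knockout GV and 1.02 and 2.22 CPM in control GV, and Nap1l5 at 0.0566 and 0.330 CPM in knockout GV and 0.511 and 0 CPM in control GV. Peg10, Impact and Nap1l5 overlapped between knockout and control at GV.

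Maternally expressed members stood at higher levels than paternally expressed ones at both stages. Per kilobase of exon, the median maternally expressed member lay between 0.868 and 2.9 CPM per kilobase over the 8 libraries, and the median paternally expressed member between 0.0303 and 0.206. Summed in CPM per kilobase, the 15 maternally expressed members reached 63.6 and 65.0 in knockout MII, 89.8 and 66.5 in control MII, 109 and 75.8 in knockout GV, and 91.7 and 89.1 in control GV. The 20 paternally expressed members reached 14.7 and 13.8 in knockout MII, 11.8 and 11.7 in control MII, 12.7 and 12.4 in knockout GV, and 12.9 and 9.33 in control GV. H13 alone made up 6.64% and 7.06% of the maternal sum in knockout MII, 12.1% and 15.6% in control MII, 54.1% and 42.6% in knockout GV, and 61.4% and 65.7% in control GV. Without H13 the maternal sum was 59.4 and 60.4 in knockout MII, 78.9 and 56.1 in control MII, 49.9 and 43.5 in knockout GV, and 35.4 and 30.6 in control GV, so the MII libraries then lay above the GV libraries in both genotypes. These sums describe the members and were not tested.

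Between knockout and control the median log2 fold change at MII was 0.08 over the 11 maternally expressed members tested and 0 over the 13 paternally expressed ones, beside -0.01 over all genes tested. The paternal 0 is the value given to Nnat, which had no reads at MII and so no measured fold change. Around it 6 paternally expressed members were positive and 6 negative, from -4.95 to 0.875. At GV the medians were 0.26 and 0.43, beside 0.00 over all genes. The maternal median at GV was -0.0179 without the first control GV library, 0.554 without the second and 0.0839 without the second knockout GV library. The paternal one was 0.147 without the second control GV library and 0 without the second knockout GV library. Between MII and GV in knockout oocytes the median was 1.13 for maternally and -1.69 for paternally expressed members, beside -0.33 over all genes. In control oocytes it was 1.34 and 0.51, beside -0.20. The -1.69 is the value of Dio3 (± 1.51 SE), with 2 and 5 reads in knockout MII and 4 and 14 in knockout GV. The 0.51 is that of Peg10 (± 0.85 SE). The difference between maternal and paternal medians was not tested. Among the 15 members of either kind with a mean of at least 5 CPM, the paternal medians were 1.21 in knockout and 0.97 in control oocytes. The low members were then left out. The paternal median in control oocytes was -0.617 without control MII library b. In knockout oocytes it was -0.729 without the second knockout GV library, -1.13 without the first knockout MII library and -2.66 without the second. With library totals as the only scaling the median of all genes moved by -0.27 at GV and by -0.16 between MII and GV in control oocytes.

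The other 15 members stayed below 1 CPM in every group. Mkrn3, a ring-finger gene, had no reads in any library, and Magel2 and Rtl1 had reads in the first knockout GV library alone, at 0.0566 CPM. Klf14 had reads in the first knockout MII library alone, at 0.0298 CPM, and Calcr, the calcitonin receptor gene, in control MII library a alone, at 1.08 CPM. Slc22a18, a membrane transporter gene, and Sgce, which encodes epsilon-sarcoglycan, had reads in every GV library and in no MII library. Slc22a18 was at 0.227 and 0.207 CPM in knockout GV and 0.371 and 0.922 CPM in control GV, which makes it at least 2.14-fold lower in knockout MII and at least 6.03-fold lower in control MII. Sgce was at 0.453 and 0.372 CPM in knockout GV and 1.07 and 0.0838 CPM in control GV. By group means it was at least 4.07-fold lower in knockout MII and at least 5.37-fold lower in control MII. Its control bound rested on the first control GV library, with 23 reads, since the second had 2 reads, below the floor of 3 counts. The knockout bound of Slc22a18, also of group means, rested on 4 and 5 reads, whose own counting error the floor does not cover. Neither had enough reads to be tested. Of the rest, Igf2 reached at most 0.179 CPM, Ndn 1.49, Ascl2 0.430, Dlk1 1.13, Dio3 0.578, Zrsr1 1.24 and Ddc 0.642 CPM in a library. The Igf2 value rests on an annotation in which 64.5% of its exon bases are shared with other gene entries. Nnat, described above, is the fifteenth. Dlk1 and Dio3, with a control region methylated in sperm, were the 2 tested members of that kind and passed in no comparison of all 8 libraries. Dlk1 passed as higher in control MII than in control GV, where it had no reads, without the second knockout MII library (adjusted p = 0.0414).

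Neighbours within a domain did not always move alike. Mest fell and Copg2, which overlaps it tail to tail over 912 exon bases, rose between GV and MII in both genotypes. H13 and the Mcts2 gene inside it both fell in knockout oocytes. Mcts2 lies within an H13 intron on the same strand, so reads of unspliced H13 RNA there cannot be told apart from Mcts2. In the Kcnq1ot1 domain Kcnq1 rose, Phlda2 rose in control oocytes, and the antisense RNA Kcnq1ot1 was at 4.80 and 4.42 CPM in knockout MII, 4 and 10.5 in control MII, 1.76 and 0.743 in knockout GV, and 1.72 and 1.80 in control GV, a rise in control oocytes (2.04 ± 0.76, adjusted p = 0.0461). In knockout oocytes its difference was 1.89 ± 0.76 (adjusted p = 0.0626). Because the strand setting of the counting is not given, reads of overlapping neighbours on opposite strands cannot be told apart. That touches Mest with Copg2, Kcnq1 with Kcnq1ot1, Ube3a with Snhg14, Usp29 with Zim3, Cdkn1c with Gm44732, Zrsr1 with Commd1 and H13 with Gm26841, which share exon bases.

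The enzymes and DNA-binding proteins that set or protect imprints were examined as a separate list of 34 genes, of which 33 were tested. None passed between knockout and control at MII or at GV (edgeR), where 3 and 5 had an unadjusted p below 0.05, beside 22.2% and 10.8% of all genes tested. Between MII and GV, 9 were higher and 13 lower in knockout oocytes, and 13 were higher and 12 lower in control oocytes. The shares over all genes were 19.9% up and 29.1% down for knockout oocytes, and 21.2% up and 27.9% down for control oocytes. Of 28 other imprinted protein-coding genes, 21 were tested; none passed between knockout and control at either stage, with 3 at MII and 2 at GV below an unadjusted p of 0.05, and 5 rose in knockout and 4 in control oocytes between GV and MII, where none fell. Of 10 imprinted noncoding RNAs, 6 were tested and none passed between knockout and control, with 1 below an unadjusted p of 0.05 at each stage.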

How the data were processed

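The deposited values were counts of reads per Ensembl gene, which the authors gave in 1 table. Per the submitters' processing notes, Bowtie2, HTSeq and edgeR were used. Tool versions, strand setting, annotation release and any filter: not given in the sources used here. Per the file headers, 2 columns carry an identical control MII name. They are called libraries a and b and have no replicate number. HTSeq summary entries (22% to 35.1% of reads) stayed out of library sizes. Replicate columns differed by a chi-square per degree of freedom of 48.5 to 106, so no library was counted as a duplicate.

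Symbols and positions came from GENCODE M21 (GRCm38) and promoters from RefSeq GRCm38.p6. The model was edgeR 4.0.16 in R 4.3.3. filterByExpr kept 15572 genes, TMM scaled the libraries, the 8 libraries shared a model with 1 term for each group, and 5 contrasts were tested with the two-sided quasi-likelihood F-test. Benjamini-Hochberg adjustment ran over all genes tested, and passing means an adjusted p below 0.05. The SE is the log2 fold change divided by the square root of F. A group without reads was set to a floor of 3 counts per library, 0.0894 to 0.17 CPM, which covers counting error only. DESeq2 1.42.0, other scalings and filters, left-out libraries and fits of 2 groups were alternatives.

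The members and lists were chosen with earlier results of these data known. Per-library values are given for members with a group mean of at least 1 CPM. Chosen after their values were seen, Nnat, Slc22a18, Sgce and Zrsr1 have them too, as do Ndn and Calcr in control MII. Fold changes are given for members that passed and for the 5 with the highest level per kilobase. Zim3, annotated as antisense, was left out of the list of other imprinted genes.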

Additional observations from a re-analysis of the deposited data

How the results depend on the processing

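Over all genes, the number that passed changed with the alternative used. At MII it was 793 of 15572 with relative log expression factors and 1829 of 25203 without a filter. In the fit of the 2 GV groups it was 770 of 15527, and 1855 with replicate numbers as a block. For the difference of knockout effects it was 355 of 15572 with DESeq2 and 498 of 25203 without a filter. With library totals alone it was 7055 of 15572 between MII and GV in control oocytes. The counts of members that passed were also recomputed under each alternative. Between knockout and control at MII the count was 0 with relative log expression factors and 2 without a filter on low counts (H13 and Mcts2), and 0 to 1 when 1 library was left out. At GV it was 0 in every left-out fit and 1, Phlda2, when only the 2 GV groups were fitted. Between MII and GV in knockout oocytes the count, 13, ranged from 5 (without the first knockout GV library) to 13 with 1 library left out; it was 8 without the second knockout GV and 6 without the second knockout MII library. In control oocytes the count, 13, was 8 when libraries were scaled by their totals alone and 4 (without the first control GV library) to 14 with 1 library left out; it was 8 without the second control GV library. The difference of knockout effects gave 1 member, Phlda2, without a filter and with DESeq2, and 0 in every left-out fit.

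Replicate numbers are shared by the knockout and control GV libraries (correlation of deviations 0.119) and by the knockout GV and MII libraries (-0.02), with only 2 pairs each, so they were not taken as pairs. The replicate block was fitted to the 2 groups compared. It left the counts of such fits as they were without the block, 1 at GV (Phlda2, adjusted p = 0.000123 with and 0.017 without it) and 10 in knockout oocytes. No paired analysis was possible for the other contrasts because the control MII columns carry no distinct numbers.

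Fold changes near 0 changed sign, and none of them passed. Kcnq1 at MII was 0.0204 with relative log expression factors and with DESeq2, 0.0107 without a filter and 0.0448 without mitochondrial genes, and -0.144 to 0.259 with 1 library left out. Commd1 at MII ranged from -0.0904 (without the first knockout MII library) to 0.662. At GV, Cdkn1c ranged from -0.391 to 0.0479, Kcnq1 from -0.0279 to 0.94, Commd1 from -0.405 to 0.0839 and H13 from -0.822 to 0.0353. The cause of these changes was not tested.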

Other observations

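Among imprinted genes outside the 35, the noncoding RNA Peg13 had no reads in any of the 4 knockout libraries. In control MII it reached 0.885 and 0.661 CPM, and in control GV 0.464 and 1.01 CPM (edgeR, adjusted p = 0.0832 at MII and 0.227 at GV). Pon2, which lies near Peg10, had no reads in knockout MII and 0 and 0.0413 CPM in knockout GV, against 0.769 and 0.496 CPM for control MII. Control GV had 0.835 and 0.587 CPM of it. Both were picked after their values were seen, and the cause was not tested.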
